A study of Sus scrofa with 6 samples.

Results

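Nuclear factor κB (NF-κB) is a family of dimeric transcription factors that resting cells hold in the cytoplasm bound to inhibitors of κB (IκB). Kinases downstream of cytokine and pattern-recognition receptors mark the IκB proteins for degradation, the dimers enter the nucleus, and among the genes they switch on are those of their own subunits and inhibitors, which close the response again. The genes described here are members of this loop: the subunit genes RELA, NFKB1, NFKB2 and RELB, the IκB family genes NFKBIA, NFKBIE and NFKBIZ, the genes of the ubiquitin-editing enzyme A20 (TNFAIP3) and of its binding partner ABIN1 (TNIP1), and MAP3K8, a kinase that is held by the NFKB1 precursor protein. They were chosen by name, 10 in all, with the results of the same contrast already known, so their differences between the conditions are a description, and where calls of them are counted nothing is read from the count. Of the 10, 9 were matched among the 25149 genes of the count tables, and each of the 9 passed the filter that left 17512 genes for testing. RELB was not analysed here.

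The cells were neonatal porcine Sertoli cells (NPSC), the nurse cells of the testis tubule, isolated from wild-type (WT) male Duroc-Landrace piglets in their first days of life and cultured in DMEM with 10% fetal bovine serum. Xenogeneic grafts meet human complement early, and the question was which transcripts of these cells change within 90 min of meeting it. Baseline NPSC (3 plates) received DMEM, and complement NPSC (3 plates) received the same volume of pooled normal human serum of blood group AB with its complement preserved, both in exchange for an equal part of the culture medium. None of the 6 libraries came from cells given serum without active complement, so complement cannot be told apart from the other components of human serum, and the animals were several litters whose place among the plates is not stated.

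Library totals were 6796183 to 8371923 counts in baseline NPSC and 3641518 to 6403606 in complement NPSC. The Sertoli cell marker genes with the most counts, CLU, CLDN11 and INHA, were abundant in both conditions, with means of 2634 to 4694, 360 to 557 and 258 to 429 CPM (depth-scaled counts on TMM-normalized library sizes). The summed CPM of 10 Sertoli cell markers was 5046 to 7765 in baseline and 3316 to 3950 in complement NPSC, and 5 of the 10 were lower in every complement library, as 8.14% of all tested genes were. Markers of other testis cells were present too: summed CPM was 999 to 1185 against 746 to 789 for 4 Leydig cell markers (all 4 lower in every complement library), 2680 to 4078 against 2139 to 4007 for 6 peritubular myoid, 542 to 792 against 415 to 911 for 6 endothelial, 162 to 235 against 146 to 211 for 10 macrophage, 242 to 381 against 186 to 325 for 6 germ cell, and 53.8 to 92.6 against 79.0 to 129 for 7 lymphocyte markers. Over all these marker lists edgeR's quasi-likelihood test called 0 genes after Benjamini-Hochberg adjustment, while 15 of 49 had an unadjusted p under 0.05, beside 2658 of all 17512 genes, and DESeq2 called 1, CLU. Counts on 48 olfactory receptor genes were taken as a measure of background: 2.15, 1.20 and 1.18 CPM per kilobase in the baseline libraries against 4.01, 4.43 and 1.51 in the complement libraries. Whether cells of the preparation express these genes was not tested. The measure is rough, since for a tested lymphocyte marker the expected background came to 146% of its counts. The background density was above the baseline range in complement replicates 1 and 2 and inside it in replicate 3. The summed Sertoli and Leydig cell markers were lower in every complement library, and the other 5 sums overlapped. Within these sums, 3 of 7 lymphocyte markers were higher in every complement library, as 8.95% of all tested genes were. Of the 10 macrophage markers, 2 were lower in every complement library, beside 8.14% of all tested genes. These values were not corrected for background. The part of the markers in the values of the NF-κB genes was not tested, and for the background the members are given also with the density as a covariate and with the expected background subtracted.

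In these plates, transcripts of the 3 IκB genes, of TNFAIP3, NFKB1 and MAP3K8 and, by little, of NFKB2 were higher in every library with human serum, whereas those of RELA and TNIP1 overlapped. Mean CPM of NFKBIA, NFKBIZ, NFKB1, MAP3K8 and TNFAIP3 in complement NPSC was 2.51, 2.56, 2.41, 2.53 and 2.18 times that in baseline NPSC. It was 1.39 times for NFKBIE and 1.30 times for NFKB2. RELA stood at 0.938 and TNIP1 at 0.964 times its baseline mean. In 7 of the 9 genes every complement library was above every baseline library, a pattern that 8.95% of all tested genes had (1568 of 17512). With CPM by library total the same 7 genes had it, beside 8.86% of genes. Because the genes were chosen on this contrast, nothing is read from that count. In bulk RNA, fewer cells of a type and less RNA per cell cannot be told apart, and this holds for each level below.

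**Figure D1:**
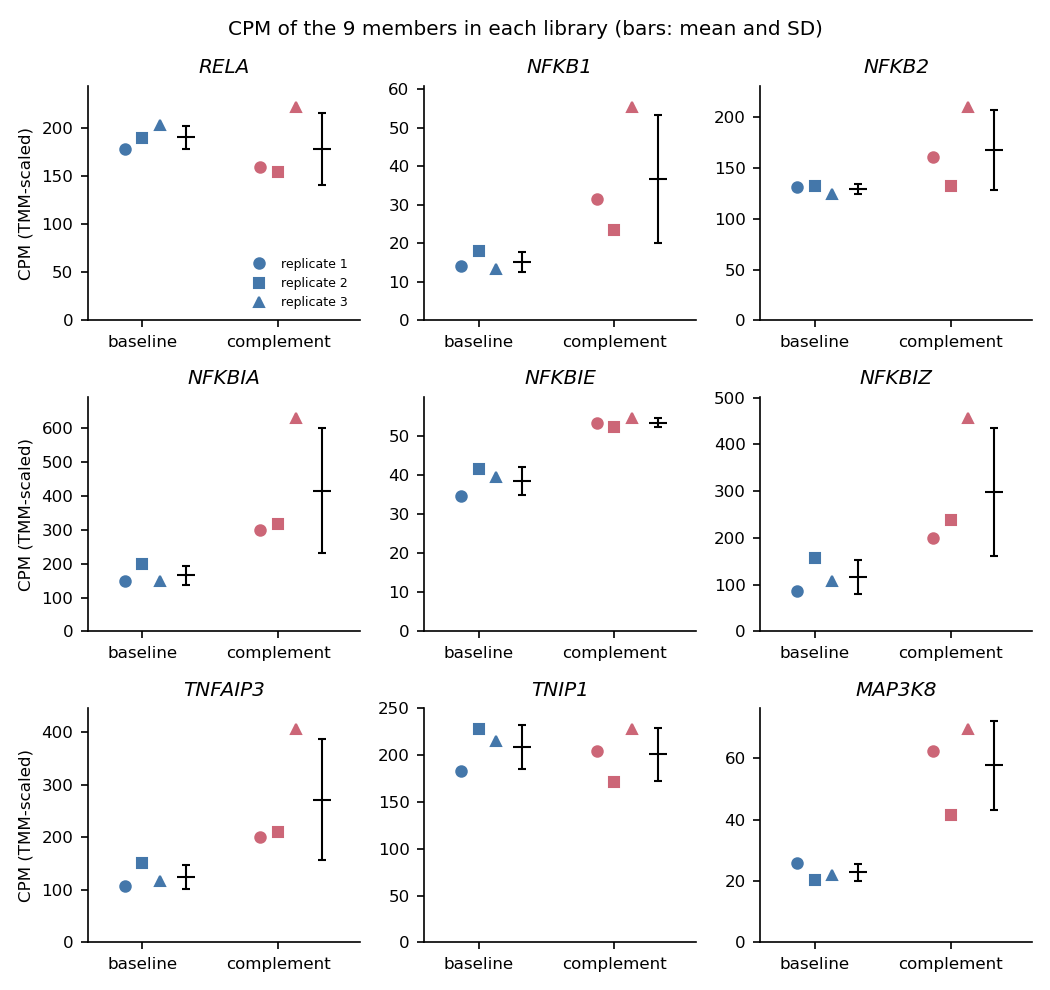
CPM of the 9 genes in each library, with baseline NPSC on the left and complement NPSC on the right of each panel, symbols for the replicate number, and bars for the mean and SD of 3 libraries. The groups overlap for RELA and TNIP1, touch for NFKB2 (132.5 and 132.6 CPM), and stand apart for the other 6 genes, and complement replicate 3 is the highest complement library in every panel.

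RELA encodes p65, the subunit with the strong transactivation domain. It had 178, 189 and 202 CPM in baseline NPSC (190 ± 12.2, SD, n = 3) and 159, 153 and 221 CPM in complement NPSC (178 ± 37.5, SD, n = 3). Complement replicates 1 and 2 lay below all 3 baseline libraries and replicate 3 above them. The fitted log2 fold change was -0.09 (SE 0.22), and it took the opposite sign under upper-quartile normalization (0.01) and with the background density as a covariate (0.20), and stood at -0.31 without complement replicate 3. The gene model (ENSSSCG00000012981) lies on chromosome 2 from 5698668 to 5707943, minus strand, with 10 exons and 5545 bp of exon in the unnamed genome build of the count tables.

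NFKB1 encodes p105, the precursor of the p50 subunit, which also acts as an IκB and holds the MAP3K8 kinase. Its baseline libraries had 14.2, 18.1 and 13.3 CPM (15.2 ± 2.55, SD, n = 3), and its complement libraries had 31.4, 23.4 and 55.2 CPM (36.7 ± 16.6, SD, n = 3). The groups did not overlap, and complement replicate 3 was 2.02 times the mean of replicates 1 and 2. Its fitted log2 fold change was 1.28 (SE 0.29). The model of this gene in the tables (ENSSSCG00000030957, chromosome 8, 127365660 to 127664001, plus strand) appears partial: it holds 778 bp of exon in 5 blocks spread over 298342 bp, with a single gap of 286578 bp that contains MANBA, with 17 exons, and an unnamed gene (ENSSSCG00000024306), with 7 exons. The level of NFKB1 therefore rests on 98 to 318 counts per library and on a part of the transcript.

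NFKB2 encodes p100, the precursor of p52 in the non-canonical branch and itself an IκB-like inhibitor. Baseline NPSC had 132, 133 and 124 CPM (129.6 ± 4.49, SD, n = 3), a narrow range. Complement NPSC had 161, 133 and 210.0 CPM (168 ± 39.1, SD, n = 3), so replicate 2 sat at the baseline level, above the highest baseline library only by 132.6 against 132.5 CPM. With the expected background subtracted, that library stood at 120.0 CPM against 120.1 to 128 CPM in baseline NPSC, and the groups overlapped. On the log2 scale the fold change was 0.38 (SE 0.22). NFKB2 (ENSSSCG00000010580) lies on chromosome 14 from 123260522 to 123270684, plus strand, with 26 exons and 3280 bp of exon.

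NFKBIA encodes IκBα, the inhibitor that NF-κB itself induces and that returns the dimers to the cytoplasm. It had 150.2, 198 and 149 CPM in baseline (166 ± 27.8, SD, n = 3) and 299.8, 318 and 629 CPM in complement NPSC (416 ± 185, SD, n = 3). The lowest complement library was well above the highest baseline library, and replicate 3 was 2.04 times the mean of the other complement libraries. The log2 fold change was 1.33 (SE 0.30) with all libraries and 0.87 without complement replicate 3. NFKBIA (ENSSSCG00000001952) lies on chromosome 7 from 69417309 to 69420851, plus strand, with 6 exons and 1852 bp of exon.

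NFKBIZ encodes IκBζ, an inducible nuclear IκB protein that acts on NF-κB at chromatin and is itself a primary response gene. Baseline NPSC held 85.4, 157 and 107 CPM (116 ± 36.6, SD, n = 3), the widest relative spread of the members at baseline. Complement NPSC held 200.3, 239 and 456 CPM (298 ± 138, SD, n = 3). All 3 complement libraries were above the highest baseline library, replicate 2, and complement replicate 3 was 2.07 times the mean of the other complement libraries. The log2 fold change was 1.36 (SE 0.31), and 0.89 without that library. The gene (ENSSSCG00000011951) lies on chromosome 13 from 166744538 to 166776678, minus strand, with 13 exons and 2790 bp of exon.

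NFKBIE encodes IκBε, a slower inhibitor of the same class as IκBα. It had 34.6, 41.5 and 39.4 CPM in baseline (38.5 ± 3.50, SD, n = 3) and 53.4, 52.2 and 54.5 CPM in complement NPSC (53.4 ± 1.15, SD, n = 3). The complement libraries were close to each other, replicate 3 at 1.03 times the mean of the other 2, and none overlapped the baseline range. A log2 fold change of 0.47 (SE 0.18) was fitted. NFKBIE (ENSSSCG00000001703, chromosome 7, 45124044 to 45132794, minus strand, 6 exons, 2906 bp of exon) lies 90 bp from the chaperone gene HSP90AB1 on the plus strand, which had 1015 to 1831 CPM. The strand setting of the counting is not given in the sources used here, so reads that cross this boundary cannot be told apart.

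TNFAIP3 encodes A20, which removes and adds ubiquitin chains on signalling adaptors and so ends the activation of the IκB kinase. Its baseline libraries had 107, 151 and 116 CPM (125 ± 23.3, SD, n = 3), and its complement libraries had 201, 209.7 and 406 CPM (272 ± 116, SD, n = 3). As for NFKBIA, no library overlapped and complement replicate 3 was far above the others, at 1.98 times their mean. The log2 fold change was 1.12 (SE 0.28), and 0.69 without that library. TNFAIP3 (ENSSSCG00000004154) lies on chromosome 1 from 29825730 to 29841626, minus strand, with 9 exons and 4728 bp of exon.

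TNIP1 encodes ABIN1, an adaptor that brings A20 to ubiquitin chains. It had 183, 227 and 215 CPM in baseline (209 ± 23.1, SD, n = 3) and 204, 172 and 228 CPM in complement NPSC (201 ± 28.1, SD, n = 3). The groups overlapped over most of their ranges, with the lowest value in complement replicate 2. Its log2 fold change was -0.05 (SE 0.22), positive under upper-quartile normalization (0.06), with the background covariate (0.18) and without complement replicate 2 (0.03). TNIP1 (ENSSSCG00000017091) lies on chromosome 16 from 78291878 to 78338637, minus strand, with 18 exons and 2248 bp of exon.

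MAP3K8 encodes TPL2, the kinase that p105 keeps inactive until the IκB kinase acts on p105, and that then feeds a MAP kinase cascade. Baseline NPSC had 25.9, 20.4 and 22.1 CPM (22.8 ± 2.82, SD, n = 3), and complement NPSC had 62.3, 41.5 and 69.5 CPM (57.8 ± 14.5, SD, n = 3). The lowest complement library was well above the highest baseline library, and replicates 1 and 3 were nearer to each other than in the 4 genes above in which replicate 3 stood apart. The log2 fold change was 1.34 (SE 0.22), and 1.16 without complement replicate 3. As the member with the lowest level per length it also had the largest expected background share, 21.7% of its counts over the 6 libraries and 9.34% to 35.9% in single libraries. With that background subtracted, its baseline libraries stood at 17.7, 15.3 and 17.1 CPM and its complement libraries at 48.8, 26.6 and 63.0 CPM, and the groups still did not overlap. MAP3K8 (ENSSSCG00000020705) lies on chromosome 10 from 45065121 to 45177941, minus strand, with 10 exons and 3868 bp of exon.

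MAP3K8 was also the only member called by edgeR (quasi-likelihood test, Benjamini-Hochberg adjustment across the 17512 genes, adjusted p under 0.05), which found 16 genes higher in complement NPSC (0.0914% of those tested) and 2 lower. Of the 9 members, 6 had an unadjusted p under 0.05, as did 2658 of 17512 genes. The Wald test of DESeq2 called 3 members, NFKBIA, NFKBIZ and MAP3K8 (0.269% of its genes were called higher). Without complement replicate 3, 4 members were called, NFKBIA, NFKBIZ, TNFAIP3 and MAP3K8, among 6.26% of genes called higher. Without baseline replicate 1 there were 2, NFKB1 and MAP3K8, among 1.48% called higher. The call of MAP3K8 was lost without baseline replicate 2 or without complement replicate 1, and 0 members were then called in edgeR's test, with 6 at an unadjusted p under 0.05 each time, while 0.0438% and 0.0677% of genes were called higher. With the log2 background density as a covariate 5 were called, NFKB1, NFKBIA, NFKBIZ, TNFAIP3 and MAP3K8, among 0.343% of genes called higher. This density was above the baseline range in complement replicates 1 and 2, so covariate and condition are partly confounded in that fit. Only complement replicate 3, with the highest value of every member among the complement libraries, lay inside that range. These counts describe the members and were not read as a test, since the contrast chose them. P-values here measure the spread between plates, which may be technical.

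**Figure D2:**
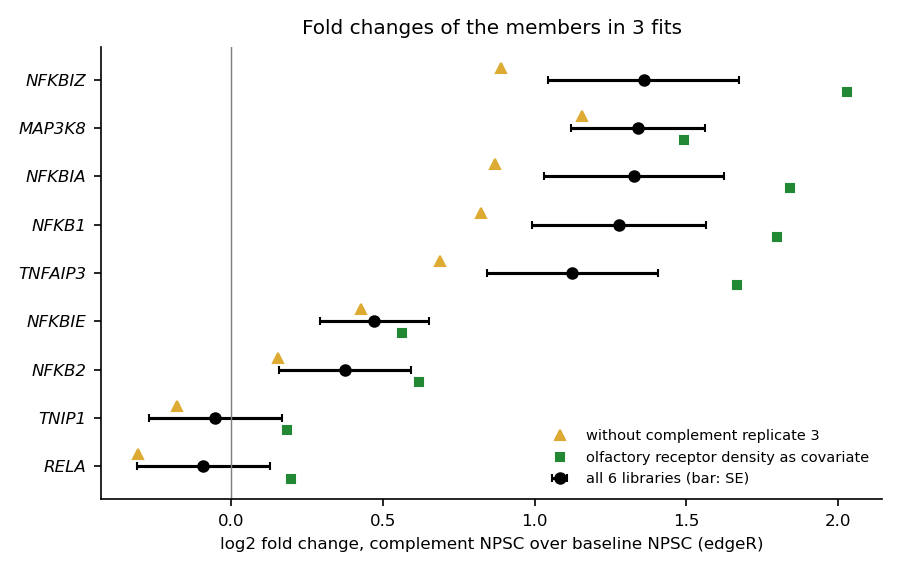
Log2 fold change (complement over baseline NPSC, edgeR) of the 9 genes with all 6 libraries (black, bars are the SE), without complement replicate 3 (yellow) and with the log2 background density as a covariate (green). NFKBIZ, MAP3K8, NFKBIA, NFKB1 and TNFAIP3 lie between 0.69 and 2.03 in all 3 fits, NFKBIE and NFKB2 between 0.15 and 0.62, and RELA and TNIP1 lie on both sides of 0.

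The libraries were not alike within complement NPSC. Replicate 3 had the highest value of all 9 members, from 1.03 times the mean of replicates 1 and 2 for NFKBIE, 1.21 for TNIP1, 1.34 for MAP3K8, 1.41 for RELA and 1.43 for NFKB2 up to 1.98 to 2.07 for TNFAIP3, NFKB1, NFKBIA and NFKBIZ. It was also the complement library with the most counts and the lowest background density. Leaving it out lowered the log2 fold change of NFKBIA from 1.33 to 0.87 and of NFKB1 from 1.28 to 0.82, and 7 of the 9 members were still higher in both remaining complement libraries than in every baseline library, beside 30.2% of tested genes. With the expected background subtracted from all 6 libraries, 6 of the 9 were higher in every complement library, beside 4.75% of tested genes, NFKB2 being the member that then overlapped. Both of these counts were added after the data were seen.

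Levels of different genes were compared per kilobase of exon. In baseline NPSC TNIP1 (92.8 ± 10.3 CPM per kilobase, SD, n = 3) and NFKBIA (89.5 ± 15.0) stood highest and overlapped. NFKBIZ (41.7 ± 13.1) and NFKB2 (39.5 ± 1.37) followed and overlapped, then RELA (34.2 ± 2.20), TNFAIP3 (26.4 ± 4.93) and NFKB1 (19.5 ± 3.28), of which the last pair overlapped, then NFKBIE (13.3 ± 1.21) and MAP3K8 (5.90 ± 0.730). The range of NFKBIZ (30.6 to 56.2) also held that of RELA (32.1 to 36.5) and reached that of TNFAIP3 (22.6 to 31.99), so NFKBIZ was not apart from these genes. TNIP1 and NFKBIA were at percentiles 95.9 and 95.8 of the tested genes at baseline, and MAP3K8 at percentile 32.5, so the IκBα transcript was abundant before any human serum was added.

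In complement NPSC NFKBIA stood first (mean 224.5 CPM per kilobase, from 162 to 339.8 in 3 libraries), followed by NFKBIZ (107 ± 49.4, SD, n = 3), TNIP1 (89.4 ± 12.5), TNFAIP3 (57.5 ± 24.5), NFKB2 (51.2 ± 11.9), NFKB1 (47.1 ± 21.3) and RELA (32.1 ± 6.75). Each of these overlapped the next in the order. NFKBIE (18.4 ± 0.395) and MAP3K8 (14.9 ± 3.76) came last, below RELA and without overlap between them. RELA was in place 5 of the order at baseline and in place 7 in complement NPSC, with NFKB1 and TNFAIP3 above it. The level of NFKB1 rests on its partial model.

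**Figure D3:**
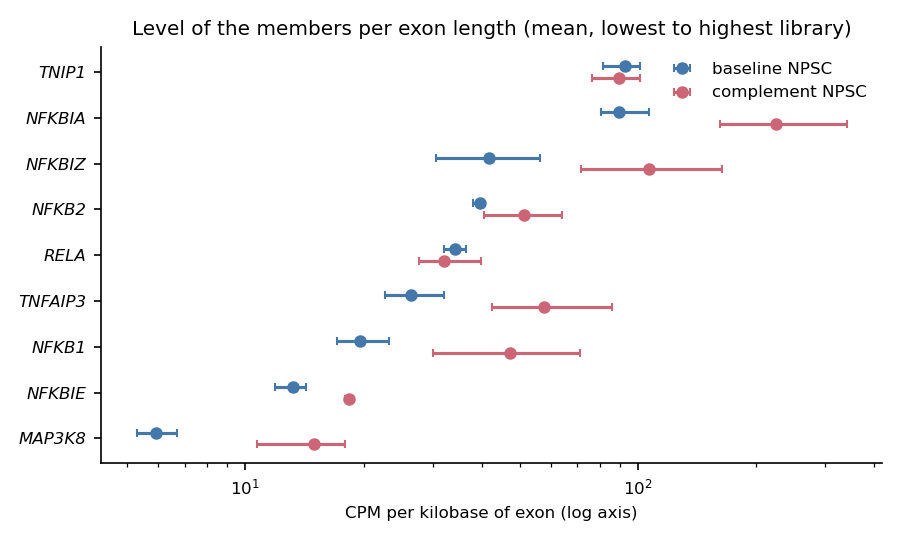
Mean CPM per kilobase of exon of the 9 genes on a log axis, in baseline (blue) and complement NPSC (red), with lines from the lowest to the highest of 3 libraries. NFKBIA stands at 89.5 and 224.5, NFKBIZ at 41.7 and 107 and MAP3K8 at 5.90 and 14.9 CPM per kilobase, while the ranges of TNIP1 and RELA overlap between the conditions.

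Ratios between genes of one library do not depend on how libraries are scaled to each other. These were chosen after the values were seen. The inhibitor NFKBIA stood to the subunit RELA, per kilobase, at 2.53, 3.14 and 2.21 in baseline (2.62 ± 0.472, SD, n = 3) and at 5.64, 6.21 and 8.53 in complement NPSC (6.79 ± 1.53, SD, n = 3). The ratio was higher in every complement library, 2.59 times on average, and complement replicates 1 and 2 were above the baseline range as replicate 3 was. NFKBIZ over RELA was 0.954, 1.65 and 1.05 against 2.502, 3.10 and 4.10, and NFKBIE over RELA 0.372, 0.419 and 0.372 against 0.640, 0.650 and 0.471. Neither overlapped, and for NFKBIE the smallest complement ratio was that of replicate 3.

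The enzyme pair and the precursor pair showed the same order. TNFAIP3 over TNIP1 was 0.278, 0.316 and 0.257 in baseline and 0.468, 0.581 and 0.848 in complement NPSC, 2.23 times the baseline mean. NFKB1 over NFKB2 was 0.455, 0.576 and 0.451 against 0.821, 0.743 and 1.11, or 1.80 times. Both ratios were higher in every complement library. NFKBIA over TNFAIP3 had the smallest relative spread of the ratios computed, from 3.58, 3.34 and 3.27 (3.40 ± 0.165, SD, n = 3) to 3.81, 3.87 and 3.96 (3.88 ± 0.0738, SD, n = 3), 1.14 times and without overlap. MAP3K8 over NFKB1 overlapped between the conditions, at 0.367, 0.227 and 0.335 against 0.399, 0.357 and 0.253, as did NFKBIZ over TNFAIP3.

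**Figure D4:**
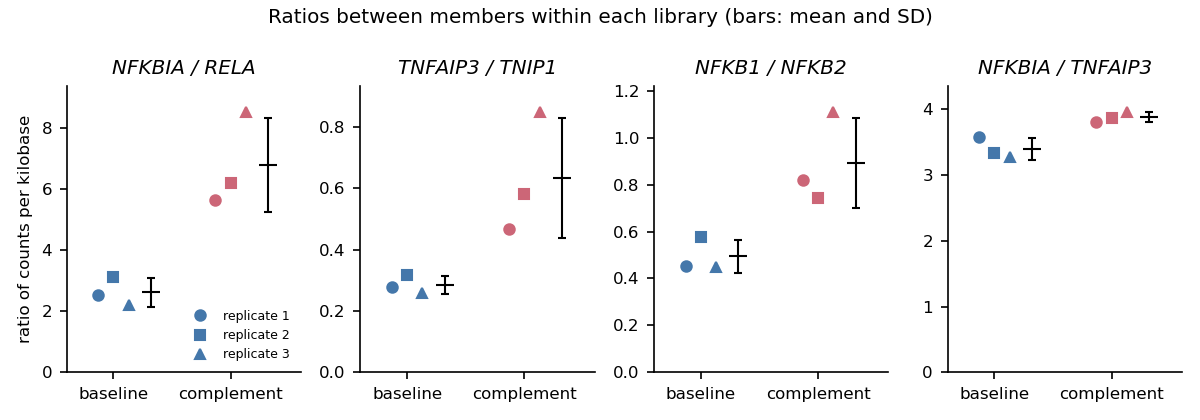
Ratio of counts per kilobase between 2 members in each library, for NFKBIA to RELA, TNFAIP3 to TNIP1, NFKB1 to NFKB2 and NFKBIA to TNFAIP3, with symbols for the replicate number and bars for mean and SD of 3 libraries. The first 3 ratios average 2.62 and 6.79, 0.284 and 0.632, and 0.494 and 0.891 in baseline and complement NPSC, and the last averages 3.40 and 3.88, and none of the 4 overlaps between the conditions.

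Deviations of the libraries from their own condition's mean are a measure that the contrast does not enter. Over the 36 pairs of members, the correlation of these deviations over the 6 libraries had a median r of 0.76 (range -0.20 to 0.99), and 27 pairs (75.0%) were above 0.5, beside 27.1% of all pairs of tested genes, whose median was -0.002. NFKBIA and TNFAIP3 (0.99), NFKBIZ and TNFAIP3 (0.97), and NFKB1 and NFKB2 (0.96) deviated most alike, and MAP3K8 and NFKBIE, at -0.20, least. With CPM by library total in place of TMM the median over the members was 0.23, with 10 pairs (27.8%) above 0.5 beside 33.5% of all pairs, so this likeness depended on the scaling. The points share libraries, depth and background, and complement replicate 3 carried the largest deviation of several members.

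The 5 genes with a mean of at least 20 CPM whose log2 CPM over the 6 libraries was most like that of NFKBIA, among 6436 compared, were TNFAIP3 (r = 0.996), CXCL8 (0.986), PHF2 (0.984), NFKBIZ (0.983) and KDM6B (0.983). The contrast that chose the members enters this r, so nothing is read from the places of the members. CXCL8 encodes the neutrophil chemokine interleukin 8, and PHF2 and KDM6B encode histone demethylases. CXCL8 and KDM6B had log2 fold changes of 0.98 and 1.11, and PHF2, with the same pattern on a much smaller scale, 0.20. Of the other members, NFKB1 was in place 6 (0.978), NFKB2 in 65 (0.89), NFKBIE in 72 (0.89) and MAP3K8 in 79 (0.88), while TNIP1 (0.19) and RELA (0.16) were far down the order. By deviations from each condition's mean (TMM scaling), r with NFKBIA was 0.99 for TNFAIP3, 0.95 for NFKBIZ, 0.92 for NFKB1 and 0.87 for RELA. It was 0.84 for NFKB2, 0.70 for TNIP1, 0.42 for NFKBIE and 0.41 for MAP3K8.

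The other genes of the pathway were taken from 7 lists with 97 genes, of which 71 were matched and 65 tested. The lists were chosen with earlier results of these data known, so nothing is read from counts over them. In the same edgeR test 5 of the 65 were called, all higher, beside 0.103% of all genes called in either direction, and they lay among the targets and the immediate early genes. No gene was called among those that build or trigger the NF-κB module itself, in edgeR or DESeq2, with 8 of 43 tested at an unadjusted p under 0.05 in edgeR, beside 2658 of all 17512 genes. In other edgeR fits 3 of them were called with the background covariate (REL, BIRC3 and IL1R1), beside 0.36% of all genes, and 3 without complement replicate 3 (TNFRSF1A, LTBR and TAB2), beside 10.1% of all genes. With a replicate block edgeR called 7 of them, beside 14.4% of all genes in either direction. The median log2 fold change of all tested genes was 0.02.

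**Figure D5:**
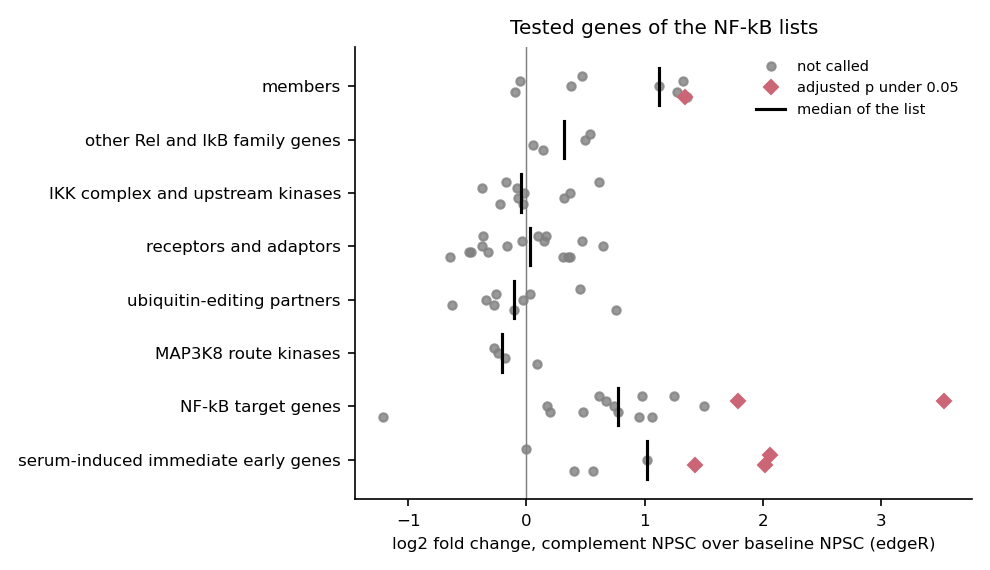
Log2 fold change (complement over baseline NPSC, edgeR) of each tested gene of the 9 members and of the 7 lists of other pathway genes, with a black line at each list's median and red diamonds for genes with an adjusted p under 0.05. The medians of kinases, receptors, ubiquitin-editing partners and MAP3K8 route kinases lie between -0.21 and 0.03, those of the targets and the immediate early genes at 0.78 and 1.02.

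Among the other Rel and IκB family genes (4 of 4 tested, 0 called, 2 at an unadjusted p under 0.05 in edgeR, median log2 fold change 0.32), REL, the c-Rel subunit, had 36.0, 39.8 and 42.0 CPM in baseline and 49.4, 42.5 and 78.3 CPM in complement NPSC, without overlap. Its log2 fold change was 0.54 (SE 0.23). NFKBID, a nuclear IκB gene, was also higher in every complement library (0.49, SE 0.22), with an expected background of 20.3% of its counts. BCL3 (0.14, SE 0.21) and NFKBIB (0.06, SE 0.19), the IκBβ gene, overlapped between the conditions. NFKBIB had 65.5, 74.3 and 77.5 CPM in baseline and 65.2, 70.9 and 90.0 CPM in complement NPSC.

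Of the IκB kinase complex and the kinases above it, 10 of 11 genes were tested, with 0 called, 1 at an unadjusted p under 0.05 in edgeR and a median log2 fold change of -0.05. RIPK1 (-0.07, SE 0.23) and TAB2 (-0.37, SE 0.24), which carry the signal from the receptors, overlapped between the conditions. MAP3K14, the NIK kinase that starts processing of the NFKB2 product, was higher in every complement library, with 73.4, 63.5 and 56.8 CPM against 109.5, 83.7 and 103 CPM (log2 fold change 0.61, SE 0.19). Among receptors and adaptors (16 of 21 tested, 0 called, 3 at an unadjusted p under 0.05, median 0.03), the receptor genes with the highest CPM, TNFRSF1A (-0.49, SE 0.23) and LTBR (-0.47, SE 0.22), were lower in every complement library, and the adaptor TRAF3 (0.16, SE 0.20) overlapped.

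Among the ubiquitin-editing partners of A20 (9 of 15 tested, 0 called, 2 at an unadjusted p under 0.05 in edgeR, median -0.11), BIRC3, the gene of the ubiquitin ligase cIAP2, had 146, 153 and 137 CPM in baseline and 202, 178 and 360 CPM in complement NPSC. It was higher in every complement library and, as in TNFAIP3, highest in replicate 3, with a log2 fold change of 0.76 (SE 0.26). OTUD7B (-0.26, SE 0.19) was lower in every complement library and N4BP1 (-0.03, SE 0.22) overlapped. The listed kinases downstream of MAP3K8 (4 of 5 tested, 0 called and 0 at an unadjusted p under 0.05 in edgeR, median -0.21) overlapped for MAP2K2 (-0.18, SE 0.21) and MAP2K4 (-0.24, SE 0.20).

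Of the NF-κB target genes, 15 of 31 were tested, 2 were called higher in edgeR (0.0914% of all genes were), 11 had an unadjusted p under 0.05, and 11 were higher in every complement library (8.95% of all genes were), with a median log2 fold change of 0.78. This list was chosen with earlier results of these data known, so nothing is read from these counts. PTGS2, the inducible cyclooxygenase gene, rose from 50.0, 51.4 and 24.8 CPM to 291, 442 and 725 CPM (log2 fold change 3.53, SE 0.37, edgeR adjusted p = 0.000677). CXCL2, a neutrophil chemokine gene, rose from 40.2, 65.3 and 40.2 CPM to 155, 115 and 232 CPM (1.79, SE 0.28, adjusted p = 0.018 in the same edgeR test). Both stayed past the threshold in all 15 settings computed, with an adjusted p of at most 0.00501 for PTGS2 and 0.0382 for CXCL2. The tissue factor gene F3 (1.06, SE 0.30), the monocyte chemokine gene CCL2 (0.95, SE 0.26) and IER3 (1.503, SE 0.30) had higher values in every complement library without passing the threshold in edgeR, and DESeq2 called all 3.

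Of the immediate early genes that fresh serum is known to induce, 7 of 10 were tested, 3 were called higher in edgeR, 5 had an unadjusted p under 0.05, 4 were higher in every complement library and the median was 1.02, beside the same shares of all genes. EGR3 (log2 fold change 2.06, SE 0.29, adjusted p = 0.00963), EGR1 (2.02, SE 0.36, adjusted p = 0.0455) and JUNB (1.43, SE 0.25, adjusted p = 0.0455) rose in the same edgeR quasi-likelihood test. EGR1 went from 209, 173 and 134 CPM to 452, 479 and 1163 CPM, highest in complement replicate 3 as the inhibitor genes were. EGR1 lost its call without baseline replicate 2 (adjusted p = 0.302 in edgeR) or 3 (0.156), and JUNB without those (0.387 and 0.300 in edgeR) or complement replicate 1 (0.0758). EGR1 was also not called with DESeq2's size factors in edgeR (adjusted p = 0.0528) or with a minimum of 10 counts per library (0.0502), nor was JUNB with DESeq2's size factors in edgeR (0.0597). FOS overlapped, at 101, 231 and 123 CPM against 120, 157 and 178 CPM (0.00, SE 0.28).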

How the data were processed

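The 6 libraries of 2 groups came from bulk RNA sequencing of NPSC, 3 plates per condition. Per the submitters' processing notes, Trimmomatic 0.36, STAR 2.5.2b and featureCounts of Subread 1.5.2 were used. The authors deposited raw counts per gene, not normalized, with exon positions and the summed exon length. The genome build and the strand setting are not given in the sources used here. Symbols came from a table of gene names, which paired 11804 identifiers.

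Counts were tested in edgeR 4.0.16 (R 4.3.3) with filterByExpr, TMM normalization and its two-sided quasi-likelihood test, at an adjusted p under 0.05 (Benjamini-Hochberg, 17512 genes). The SE was derived from the fold change and the F statistic. DESeq2 1.42.0 was an alternative. CPM used the TMM-normalized library size, and log2 CPM a prior count of 2. The expected background of a gene was taken as the counts per bp of 48 olfactory receptor genes (45945 bp) multiplied by the exon length of the gene. The procedure was tested on simulated data. Python 3.11.15 and matplotlib 3.10.9 made the plots.

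The members and gene lists, and the background covariate, were chosen with earlier results of these data known. Besides every member, the genes named were the 3 with the highest mean CPM of each list, those called in edgeR, and the 5 most like NFKBIA. NFKBID, IL1R1, IRAK4, SHARPIN, TRAF1, MMP9 and the genes next to or inside the gene models of members were named after their values were seen, and the ratios were chosen then. Library totals of 3641518 to 8371923 counts set the counting error, which is largest for NFKB1 and MAP3K8, the members with the fewest counts over the 6 libraries. Of the named genes, 1 of the kinase list is not reported here. Promoter motifs and protein sequences of the members were not analysed here.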

Additional observations from a re-analysis of the deposited data

How the results depend on the processing

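The number of genes called (18) was 15 to 21 with DESeq2's size factors, upper-quartile normalization, a minimum of 10 counts per library, or a log2 fold change beyond 1 also required. It was 63 in the Wald test of DESeq2, 31 without a filter, 63 with the background covariate, and 9 to 1855 with one library left out. All 21 genes called under upper-quartile normalization were higher in complement NPSC, against 16 of 18 with TMM, and under this scaling the median over all genes went on the log2 scale from 0.02 to 0.13. The members called (1) became 3 in DESeq2, 5 with the covariate and 0 to 4 with one library left out (highest without complement replicate 3). The called genes of the pathway lists (5) became 3 with DESeq2's size factors, 9 in DESeq2, 13 with the covariate and 3 to 13 with one library left out. RELA changed sign under upper-quartile normalization (0.011) and with the covariate (0.20), and TNIP1 in the same settings (0.056 and 0.18) and, within a range of -0.18 to 0.035 with one library left out, without complement replicate 2. The other 7 members kept their direction in all 15 settings, although that direction was known when they were chosen. The median correlation of the members' deviations was 0.23 with CPM by library total. The cause of these shifts was not tested.

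With a replicate block edgeR called 2515 genes in either direction (14.4% of those tested), and 10.7% of genes were called higher. Among them were 6 members (NFKB1, NFKBIA, NFKBIE, NFKBIZ, TNFAIP3 and MAP3K8) and 23 pathway genes, the latter counted in either direction. DESeq2 with the block called 415 genes in either direction (2.9%), with 1.37% higher. These held 3 members (NFKB1, TNFAIP3 and MAP3K8) and 9 pathway genes. NFKBIA, NFKBIZ and NFKBIE were not called by DESeq2 with the block (adjusted p = 0.0818, 0.0739 and 0.215), nor was EGR1 (0.0594). The block in edgeR also called 7 genes of the 5 lists that build or trigger the module (BIRC3, IRAK4, MAP3K14, NFKBID, REL, SHARPIN and TRAF1), some of them lower, beside 14.4% of all genes called in either direction. Libraries of the same number were not stated to share a litter. Their deviations correlated at 0.46, 0.03 and 0.48, against -0.50 to 0.28 between libraries of different numbers. Whether they share a litter was not tested, and the fit without a block was kept as the main fit. Baseline replicate 2 correlated best with complement replicate 3 (0.07), the other baseline libraries with their own number.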

Other observations

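Taken number by number, a pairing the labels do not give as shared cells, the log2 difference of NFKBIA was 1.00, 0.68 and 2.07, that of TNFAIP3 0.91, 0.47 and 1.80 and that of MAP3K8 1.25, 1.01 and 1.64 for numbers 1, 2 and 3. NFKBIE had 0.62, 0.33 and 0.47. Number 2 gave the lowest of the 3 differences for every member, RELA and TNIP1 included. RELA had -0.16, -0.30 and 0.13, and TNIP1 had 0.16, -0.41 and 0.08.

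Matched genes with 0 counts in all 6 libraries included TNFRSF1B and TICAM1 among the receptors and adaptors and IL6 and TNFAIP6 among the NF-κB targets. They are listed at 0, and since the expected background at their lengths was above 0, this gives no level. The target gene MMP9, a secreted gelatinase, was the one tested target lower in every complement library, with 121, 152 and 271 CPM in baseline and 103, 111 and 23.1 CPM in complement NPSC (log2 fold change -1.21, SE 0.43). It did not pass the adjusted threshold of edgeR.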
